A study of Mus musculus with 24 samples.

Results

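The 10 genes described here, Trim13, Pcdh17, Tmem254a, Rpgrip1, Elp3, Supt16, Ang2, Lrrc3b, Dlgap5 and Rnase1, all lie on mouse chromosome 14, the chromosome of Lgals3. They were selected on the measured difference in signal between arrays labelled Galectin-3(-/-), called KO, and arrays labelled wild type, called WT. A probe belonged to a gene when its accession mapped to that gene, which gave 15 probes of the 41174 on the array and 10 of 18747 named genes. Because the KO minus WT difference chose the genes, it is given as a description without a test. The tests concern tissue, diet and the dependence of the strain difference on either.

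The RNA came from endothelial cells sorted as CD105+/CD45- from the aorta and from skeletal muscle of male mice. The WT mice were C57BL/6 and the KO mice were homozygous for a targeted deletion within Lgals3 (line B6.Cg-Lgals3tm1Poi/J), which encodes galectin-3, a lectin that binds beta-galactosides. From 8 weeks of age both strains ate either chow with 12% of calories from fat or a high-fat diet (HFD) with 60%, for 8 weeks. Each of the 24 one-colour arrays held RNA pooled from 3 to 4 mice, with 1 array for each tissue, strain and diet in each of 3 trials. The groups WT chow, WT HFD, KO chow and KO HFD thus had 3 arrays each in aorta and 3 each in muscle. How many generations the KO line was backcrossed is not given in the sources used here.

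A level here is the log2 of a probe signal over the 75th percentile of its array, so 0 marks that percentile and a difference of 1 is a doubling. Between 59.5% and 75.7% of the spots on an array were well above background. Cdh5, which encodes the adhesion molecule of endothelial junctions, lay between 3.73 and 6.14 on all 24 arrays. The leukocyte gene Ptprc, which encodes the CD45 used in the sort, lay between -9.38 and -0.83. The summed signal of 12 endothelial marker genes overlapped between the strains, at 162 to 467 times the percentile in WT aorta and 175 to 517 times in KO aorta. In muscle it was 499 to 647 times in WT and 531 to 800 times in KO. In sorted pools, fewer cells of a type and less RNA per cell cannot be told apart.

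Lgals3 itself, the targeted gene, was not lower on the arrays labelled KO. In aorta its lowest, median and highest levels were 0.90, 2.44 and 3.20 on the 6 WT arrays and 2.40, 4.02 and 4.53 on the 6 KO arrays. In muscle they were 3.27, 3.96 and 4.98 for WT and 4.31, 5.06 and 6.31 for KO. The strains overlapped in both tissues. Over 12 pairs of a KO and a WT array of 1 tissue, diet and trial the difference was 1.28 ± 1.19 (SD), with KO higher in 11. The paper reports loss of galectin-3 in this line from DNA, from protein and from PCR of RNA with primers inside the deleted region. The place of the array probe within the gene was not analysed here. The array signal is therefore no check of the labels, and every direction below is between arrays as labelled.

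On the 4 HFD arrays of trial 1, Trim13 lay between the levels of the other arrays of the strains, so these arrays are described before the strain difference. Trim13 read 0.39 on the WT and 0.13 on the KO array of aorta, and 0.58 and 0.60 in muscle. The other 10 WT arrays lay between 1.18 and 2.13, and the other 10 KO arrays between -8.18 and -1.76. On a linear scale where 0 is the mean KO level and 1 the mean WT level of trials 2 and 3, the muscle HFD arrays of trial 1 had medians over the 10 genes of 0.49 for the array labelled WT and 0.46 for the array labelled KO. The chow arrays of muscle in the same trial had medians of 0.97 and 0.00. In aorta the HFD arrays of trial 1 had medians of 0.92 for WT, near the other WT arrays, and 0.56 for KO, against 1.20 and -0.00 for chow. Single genes spread widely around these medians, from -1.13 for Rnase1 to 0.88 for Ang2 on the muscle HFD array labelled WT. The strain difference of each of the 10 genes is therefore given over all pairs and without the HFD pairs of trial 1, and the reason for these levels was not tested.

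**Figure D1:**
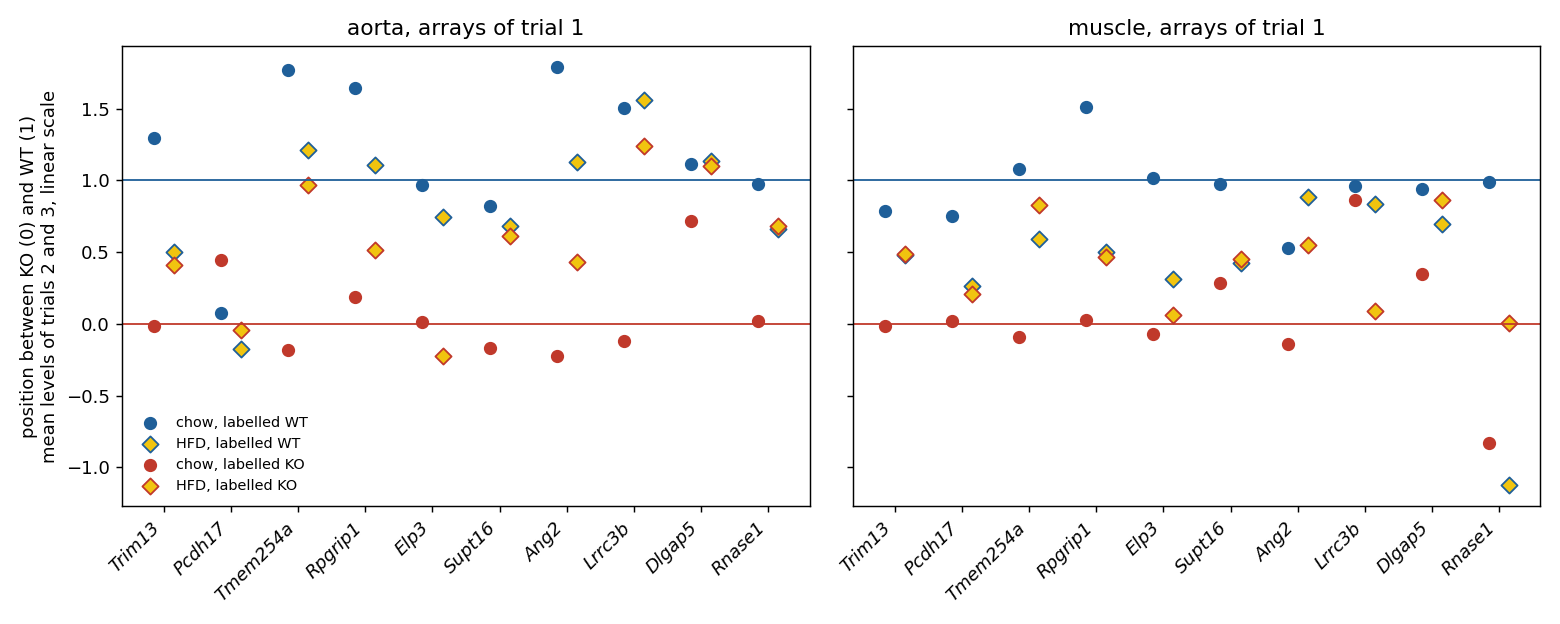
Position of each trial 1 array between the mean KO level (0, red line) and the mean WT level (1, blue line) of trials 2 and 3, on the linear scale, for the brightest probe of each gene in aorta (left) and muscle (right); circles are chow and diamonds HFD arrays, with the edge coloured by the labelled strain. In muscle the HFD diamonds of both labels lie near each other for Trim13, Rpgrip1 and Supt16, between 0.421 and 0.498, while the chow circles of these genes lie apart.

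As background, most of the 10 genes have no known role in common. Trim13 encodes a ubiquitin ligase of the endoplasmic reticulum membrane that takes part in the degradation of misfolded proteins. Pcdh17 encodes a protocadherin, a cell surface adhesion protein, and Lrrc3b and Tmem254a encode membrane proteins. Rpgrip1 encodes a scaffold of the photoreceptor cilium, Supt16 a subunit of the histone chaperone FACT, which helps RNA polymerase pass nucleosomes, and Elp3 the catalytic subunit of Elongator, which modifies transfer RNAs. Ang2 and Rnase1 encode secreted ribonucleases of the RNase A family, and Rnase1 is known as a product of endothelial cells. Dlgap5 encodes a protein that binds the mitotic spindle.

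Of the 10 genes, 5 were lower and 5 higher on the KO arrays, as means over the 12 pairs of a KO and a WT array of 1 tissue, diet and trial. In the fit across all 27387 tested probes by limma, 38 probes (0.139%) had an adjusted p under 0.05 for this contrast, and every one of the 10 genes had at least 1 of them, 11 probes in all. The choice of the genes fixes that count, and nothing is read from it. With the slide as a block the fit called 60 probes. Without the HFD arrays of trial 1 it called 54, and without trial 2 or without trial 3 it called 0.

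**Figure D2:**
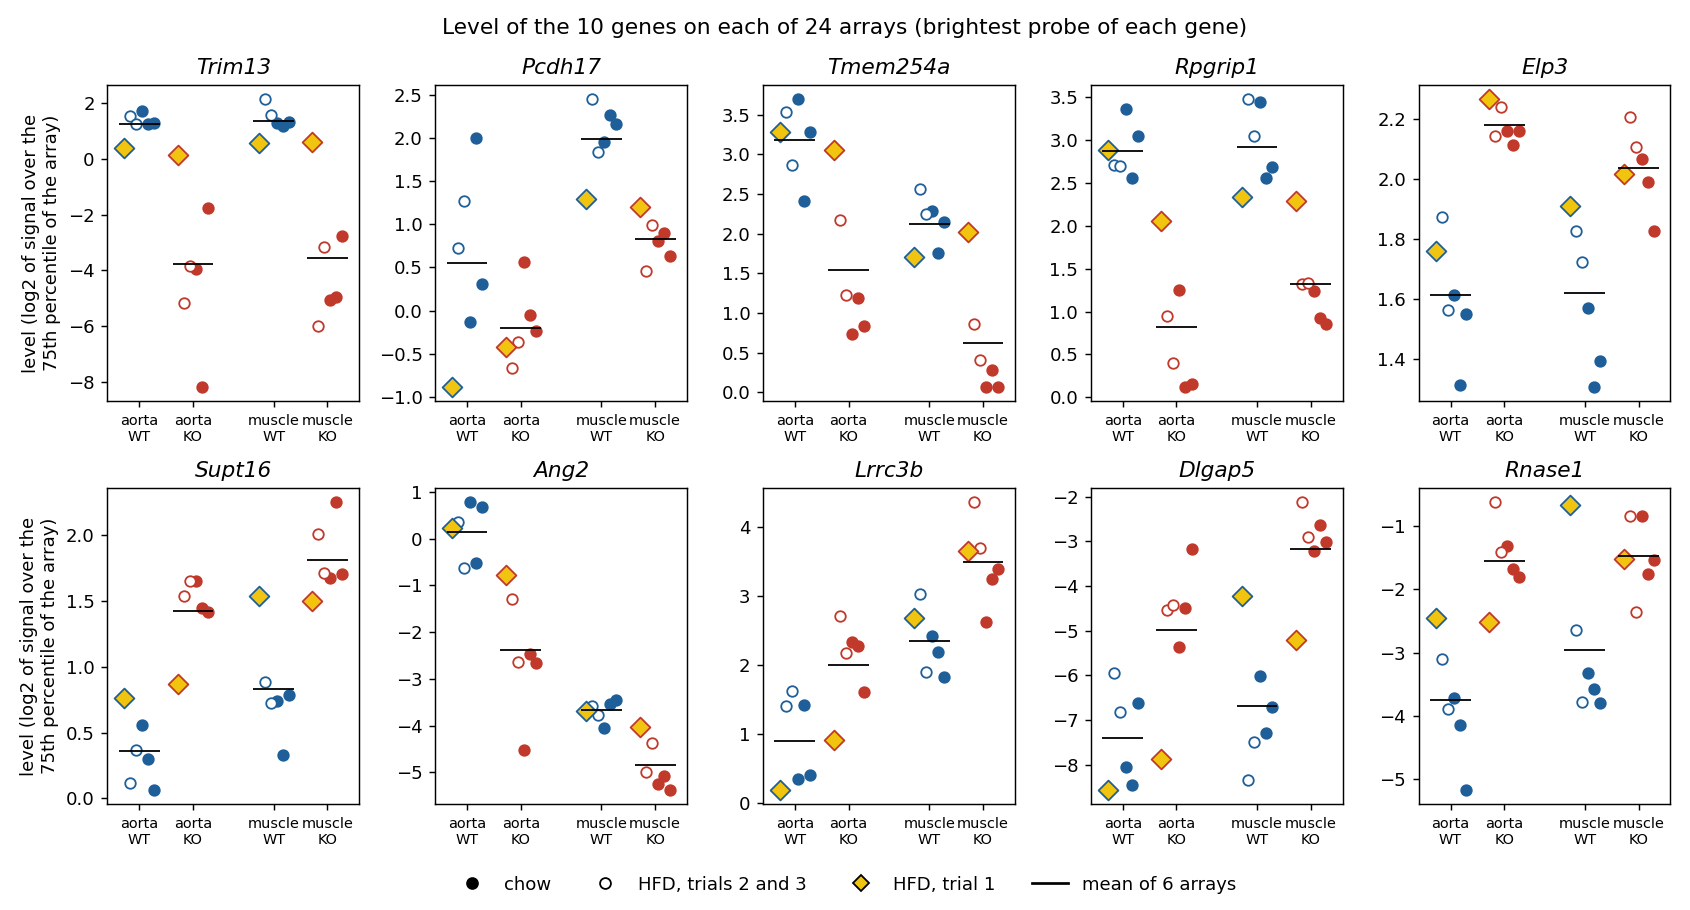
Level of the brightest probe of each gene on each of the 24 arrays, as log2 of the signal over the 75th percentile of the array, by tissue and labelled strain; filled circles are chow, open circles HFD of trials 2 and 3, yellow diamonds HFD of trial 1, and the line is the mean of 6 arrays. The Trim13 arrays labelled KO lie at or below -1.76 apart from the 2 diamonds, at 0.13 and 0.60.

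Trim13 had the largest mean difference of the 10 genes. On chow, the WT arrays read 1.70, 1.25 and 1.28 in aorta and 1.27, 1.18 and 1.33 in muscle. The KO arrays on chow read -3.94, -8.18 and -1.76 in aorta and -5.05, -4.96 and -2.75 in muscle. The chow arrays of the strains did not overlap. On HFD, WT read 0.39, 1.54 and 1.24 in aorta and 0.58, 2.13 and 1.58 in muscle. The KO arrays on HFD read 0.13, -5.17 and -3.83 in aorta and 0.60, -5.98 and -3.15 in muscle, with trial 1 first. As measured, the mean KO minus WT difference was -4.96 ± 2.83 (SD, n = 12 pairs), and -5.93 ± 1.88 (n = 10) without the HFD pairs of trial 1. The probe was well above background on all 12 WT arrays and on 9 of 12 KO arrays, so the lowest KO values are those of dim spots and no fold is given. The second Trim13 probe was well above background on only 1 of 24 arrays and did not pass the filter.

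RefSeq gives Trim13 a pair of start sites in the GRCm38.p6 build, and the promoter windows are shown because this gene had the largest mean difference. Each window runs from 250 bases before to 50 bases after the start, 5′ to 3′, with every CG in capitals.
Trim13, first start (chr14:61597976-61598275, plus strand): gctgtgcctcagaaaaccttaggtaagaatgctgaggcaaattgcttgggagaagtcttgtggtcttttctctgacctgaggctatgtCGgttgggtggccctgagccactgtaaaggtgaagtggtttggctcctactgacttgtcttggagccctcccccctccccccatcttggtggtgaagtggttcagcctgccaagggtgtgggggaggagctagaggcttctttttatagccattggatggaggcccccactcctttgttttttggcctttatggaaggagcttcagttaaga
Trim13, second start (chr14:61599262-61599561, plus strand): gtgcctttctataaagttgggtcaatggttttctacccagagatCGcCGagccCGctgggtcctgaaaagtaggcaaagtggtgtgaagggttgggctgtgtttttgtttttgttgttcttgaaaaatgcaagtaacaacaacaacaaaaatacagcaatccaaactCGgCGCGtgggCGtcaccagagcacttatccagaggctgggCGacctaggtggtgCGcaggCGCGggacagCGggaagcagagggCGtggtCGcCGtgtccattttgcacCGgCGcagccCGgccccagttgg
The window of the first start holds 1 CG, a number that 94.6% of the 32851 promoter windows in the table reach, and that of the second start holds 18, which 29.7% reach. Both windows hold TATAAA on one strand or the other, as do 13.6% of all windows. Promoter windows were found for 7 of the 10 genes.

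Rpgrip1 and Supt16 follow each other along the chromosome among the genes with a tested probe and differed in opposite directions. The brighter Rpgrip1 probe had a lowest, median and highest level of 2.56, 2.80 and 3.36 in WT aorta and 0.12, 0.68 and 2.06 in KO aorta. Its levels were 2.34, 2.87 and 3.48 in WT muscle and 0.86, 1.28 and 2.29 in KO muscle. The strains did not overlap in either tissue, though in muscle the gap was 0.05, set by the HFD arrays of trial 1. The difference was -1.83 ± 0.75 (SD, n = 12), or 3.55-fold, and -2.10 ± 0.39 (n = 10) without the HFD pairs of trial 1. A second Rpgrip1 probe gave -1.94 ± 0.81 and -2.23 ± 0.45 on the same pairs. The remaining probe was well above background on 0 of 24 arrays and has no measured difference.

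Supt16 was higher on the KO arrays. Its lowest, median and highest levels were 0.06, 0.33 and 0.76 in WT aorta against 0.87, 1.49 and 1.65 in KO aorta. In muscle they were 0.33, 0.76 and 1.54 against 1.50, 1.71 and 2.25. The aortic arrays did not overlap, and in muscle the single overlap was the HFD pair of trial 1, at 1.54 for WT and 1.50 for KO. The difference was 1.02 ± 0.54 (SD, n = 12), or 2.03-fold, and 1.22 ± 0.30 (n = 10) without the HFD pairs of trial 1. The promoter windows of this pair are shown because neighbours moved apart, again with every CG in capitals and in GRCm38.p6.
Rpgrip1 (chr14:52110653-52110952, plus strand): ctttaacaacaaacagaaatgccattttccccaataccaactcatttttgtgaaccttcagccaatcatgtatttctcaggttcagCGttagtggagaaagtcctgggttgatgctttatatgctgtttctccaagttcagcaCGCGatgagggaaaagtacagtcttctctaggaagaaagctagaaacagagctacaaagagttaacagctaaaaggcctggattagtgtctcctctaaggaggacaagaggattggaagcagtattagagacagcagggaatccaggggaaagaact
Supt16 (chr14:52197190-52197489, minus strand): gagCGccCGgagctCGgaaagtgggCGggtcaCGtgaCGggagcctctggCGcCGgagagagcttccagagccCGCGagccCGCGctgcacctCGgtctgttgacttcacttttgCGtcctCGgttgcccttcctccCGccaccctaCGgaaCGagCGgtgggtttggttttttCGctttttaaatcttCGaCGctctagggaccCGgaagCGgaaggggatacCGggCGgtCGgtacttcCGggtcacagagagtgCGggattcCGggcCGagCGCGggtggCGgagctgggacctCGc
The Rpgrip1 window holds 3 CG, which 76.7% of all windows reach, and the Supt16 window 35, which 6.95% reach. The Rpgrip1 window also holds TATAAA and CCAAT, each searched on both strands, and the Supt16 window holds neither. CCAAT is found in 37.4% of all windows.

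Dlgap5 stands directly after Lgals3 in the gene table. Its probe was well above background on 1 of 12 WT arrays and 10 of 12 KO arrays. In KO aorta the levels were -5.37, -4.50 and -3.17 on chow and -7.88, -4.54 and -4.43 on HFD, and in KO muscle -3.22, -2.65 and -3.01 on chow and -5.20, -2.13 and -2.90 on HFD. The 1 WT array above background was the HFD array of trial 1 in muscle, at -4.22. The probe passed the filter through the KO groups of muscle alone. The WT spots of muscle on chow were not well above background, and against a limit set for them the KO level was 9.53-fold higher. In aorta the same calculation gave 3.69-fold on chow and 1.58-fold on HFD. Only 2 of 3 KO arrays were well above background in each of these aortic groups, so the aortic values rest on dim spots in both strains. The calculation sets the mean of the 3 KO arrays against a limit on each WT array. That limit is the higher of the spot itself and the dimmest signal well above background. Spots without that mark can be brighter than the dimmest spot with it, so these folds are no strict bounds. On the KO chow array of trial 1 in aorta, Dlgap5 read -5.37 without the mark. As measured, the difference was 2.96 ± 1.94 (SD, n = 12), and 3.58 ± 1.36 (n = 10) without the HFD pairs of trial 1.

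The RNase A family members Ang2 and Rnase1 also lie near each other and differed in opposite directions. Ang2, an angiogenin, had a lowest, median and highest level of -0.64, 0.29 and 0.78 in WT aorta and -4.53, -2.54 and -0.77 in KO aorta. Its muscle levels were lower in both strains, at -4.05, -3.62 and -3.44 in WT and -5.37, -5.03 and -4.03 in KO. Ang2 was lower on the KO array in 12 of 12 pairs, by a mean of -1.85 ± 1.33 (SD), or 3.62-fold, and by -2.09 ± 1.33 (n = 10) without the HFD pairs of trial 1. Within trial 1 the mean was -1.96 ± 2.26 (n = 4) and within trials 2 and 3 it was -1.80 ± 0.77 (n = 8).

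Rnase1 was measured by a probe that was well above background on all 24 arrays and by a dim one. The brighter probe read -5.17, -3.80 and -2.45 as lowest, median and highest in WT aorta and -2.52, -1.54 and -0.62 in KO aorta. In muscle it read -3.79, -3.45 and -0.66 in WT and -2.35, -1.53 and -0.84 in KO. The highest WT value of muscle was again the HFD array of trial 1. The difference was 1.84 ± 1.19 (SD, n = 12), or 3.58-fold, and 2.30 ± 0.53 (n = 10) without the HFD pairs of trial 1. In trial 1 alone it was 0.99 ± 1.71 (n = 4), with 2 of 4 pairs higher on the KO array. The dim probe gave 0.58 ± 1.83 (n = 12), less than its own spread, and 1.19 ± 1.07 (n = 10) without the HFD pairs of trial 1.

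Among the cell surface and membrane genes, Tmem254a and Pcdh17 were lower and Lrrc3b was higher on the KO arrays. Tmem254a read 2.42, 3.28 and 3.70 as lowest, median and highest in WT aorta and 0.73, 1.21 and 3.06 in KO aorta. In muscle the levels were 1.71, 2.20 and 2.56 in WT and 0.07, 0.34 and 2.02 in KO. The highest KO value of either tissue was the HFD array of trial 1, and without these arrays the strains did not overlap. The difference was -1.57 ± 0.90 (SD, n = 12), or 2.98-fold, and -1.90 ± 0.54 (n = 10) without the HFD pairs of trial 1. Of the 3 Tmem254 copies in the gene table only Tmem254a had a tested probe, and whether the others bind to it was not tested.

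The brighter Pcdh17 probe was lower on the KO array in 10 of 12 pairs. It read 1.29, 2.05 and 2.45 as lowest, median and highest in WT muscle and 0.46, 0.85 and 1.20 in KO muscle, with no overlap. In aorta the strains overlapped, at -0.88, 0.52 and 2.00 in WT and -0.67, -0.30 and 0.57 in KO. The difference was -0.95 ± 0.91 (SD, n = 12) with this probe and -1.82 ± 1.16 with the other, so the probes differed in size but not in direction. Without the HFD pairs of trial 1 they gave -1.18 ± 0.81 and -2.23 ± 0.71 (n = 10). Within trial 1 the brighter probe gave -0.02 ± 0.82 (n = 4) and within trials 2 and 3 it gave -1.42 ± 0.52 (n = 8).

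Lrrc3b was higher on the KO array in 12 of 12 pairs, by a mean of 1.13 ± 0.51 (SD), or 2.18-fold, although the strains overlapped in both tissues. Its lowest, median and highest levels were 0.19, 0.90 and 1.62 in WT aorta and 0.91, 2.22 and 2.72 in KO aorta. In muscle they were 1.83, 2.31 and 3.04 in WT and 2.62, 3.52 and 4.36 in KO. Without the HFD pairs of trial 1 the difference was 1.18 ± 0.55 (n = 10).

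Elp3 had the smallest difference and the smallest spread. Its levels were 1.31, 1.59 and 1.87 as lowest, median and highest in WT aorta and 2.11, 2.16 and 2.26 in KO aorta, with no overlap. In muscle they were 1.31, 1.64 and 1.91 in WT and 1.83, 2.04 and 2.21 in KO, where the strains overlapped. The KO array was higher in 12 of 12 pairs by a mean of 0.49 ± 0.19 (SD), or 1.41-fold, and by 0.53 ± 0.16 (n = 10) without the HFD pairs of trial 1.

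**Figure D3:**
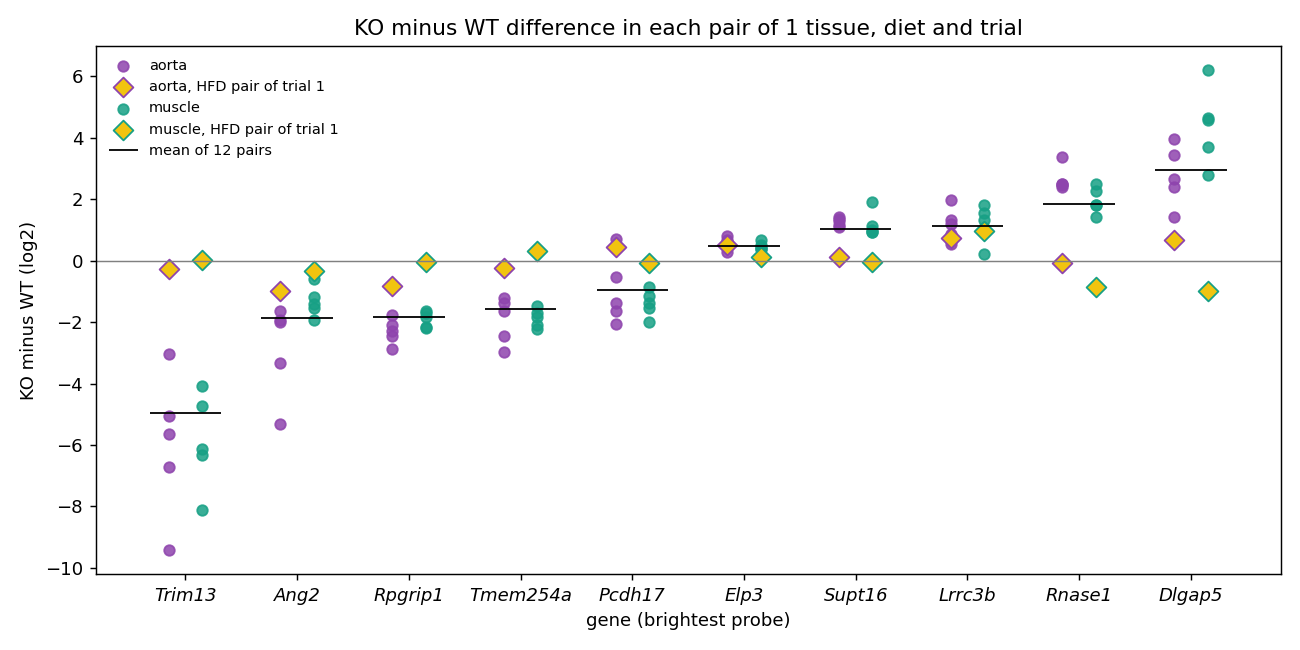
KO minus WT difference (log2) of the brightest probe of each gene in each of the 12 pairs of 1 tissue, diet and trial; purple is aorta, green muscle, yellow diamonds the HFD pairs of trial 1, and the line the mean of 12 pairs. The diamonds lie nearer to 0 than most other pairs for Trim13, Rpgrip1 and Rnase1, while Elp3 and Lrrc3b are above 0 in all 12 pairs.

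Counted over the brightest probe of each gene, the strains did not overlap for 5 of the 10 genes in aorta, where 0.15% of all tested probes were separated, and for 2 of 10 in muscle, where 0.212% were. Without the HFD arrays of trial 1 these counts were 8 of 10 in aorta and 8 of 10 in muscle, against 0.544% and 0.73% of all probes. Over both tissues at once 1 of 10 was separated (0.011% of all probes), and 5 of 10 without these arrays (0.0767%). The same contrast chose the genes, so the counts describe them only. Among the 45 pairs of these genes, the Pearson correlation over the 24 arrays was above 0 in 18 of 20 pairs that differed in the same direction and under 0 in 24 of 25 that differed in opposite directions. These arrays share the strain difference that chose the genes, and the correlations are a description.

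The gene whose signal was most like a member over the 24 arrays was itself one of the 10 in 4 cases. Trim13 and Rpgrip1 were each other's nearest, with Pearson r of 0.90 for the probe of Rpgrip1 most like Trim13 and 0.87 for the probe of highest signal. The gene nearest to Dlgap5 (r = 0.82) and to Rnase1 (r = 0.87) was Supt16. Ang2 was most like Ang4 (r = 0.98), another angiogenin gene of the same cluster, and whether the probes of the 2 genes bind each other's transcripts was not tested. The nearest genes of the others lay on other chromosomes. These were Ifi44l for Supt16 (r = 0.91) and Elp3 (r = 0.85), Cp for Tmem254a (r = 0.88), B4galt4 for Lrrc3b (r = 0.91) and She for Pcdh17 (r = 0.87). Ifi44l differed by 5.26 and Cp by -2.80 between KO and WT. The strain difference that chose the 10 genes enters each r, so these likenesses are a description only.

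Along chromosome 14 the 10 genes were spread among 497 genes with a tested probe, with 419 genes between the first, Lrrc3b, and the last, Pcdh17. In the order of tested genes Tmem254a lay 97 genes before Lgals3 and Dlgap5 1 gene after it. Rnase1, Ang2, Rpgrip1 and Supt16 lay 27, 28, 39 and 40 genes after Lgals3, and Trim13, Elp3 and Pcdh17 lay 149, 173 and 269 genes after it. The order follows the GRCm38.p6 gene table and was used for neighbourhood only, since the array design names an older build. Of 723 tested probes on the chromosome 13 (1.80%) were called in the strain fit, against 13 of 19999 (0.0650%) on named genes of other chromosomes. As 11 of the 13 probes are the members' own, chosen by this contrast, nothing is read from the difference in shares.

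Just outside the 10 genes, 2 more genes of the chromosome had a called probe. Ang4 differed by -1.63, and Oxa1l, which encodes an insertase of the inner mitochondrial membrane, by -1.22 with the called probe and 0.51 with its brightest one. Within 20 table entries on either side of Lgals3, 16 genes had a tested probe and Dlgap5 was the only one called. The other genes there lay between -0.95 and 0.70. The 15 tested genes nearest to a member on either side, members and Lgals3 left out, lay between -1.37 and 0.84 with a median of -0.06, and none was called. The lowest of them, Duxbl1, stands after Tmem254a, and Plac9a before it differed by -0.93. These names were chosen after their values were seen.

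**Figure D4:**
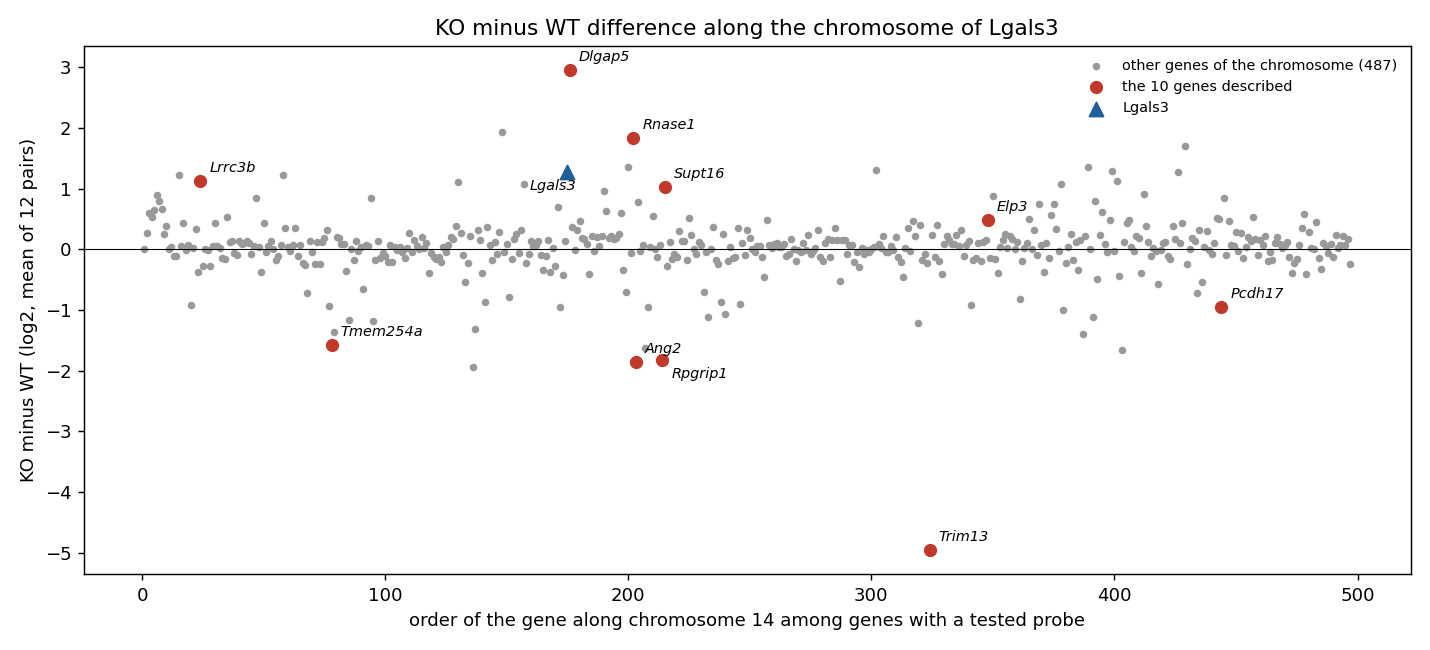
KO minus WT difference (log2, mean of 12 pairs, brightest tested probe) of the 497 genes of chromosome 14 with a tested probe, in their order along the chromosome; red circles are the 10 genes described, the blue triangle is Lgals3 and grey points are all others. Most genes lie near 0, and 35 of the 497 lie past 1 in size, grey points among them. Several grey points lie further from 0 than Elp3 at 0.49 and Pcdh17 at -0.95, so size alone does not set the 10 genes apart. Rnase1 and Ang2, 27 and 28 tested genes after Lgals3, and Rpgrip1 and Supt16, 39 and 40 after it, stand side by side and differ in opposite directions. Trim13 at -4.96 lies 149 tested genes away.

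The partners of these genes in complexes and pathways mostly stayed near 0 in the same contrast, also a description. The other 5 Elongator subunits lay between -0.17 and 0.10, against 0.49 for Elp3. The 7 other FACT and elongation factor genes with a tested probe lay between -0.30 and 0.10, against 1.02 for Supt16. The 11 other genes of protein degradation at the endoplasmic reticulum lay between -0.13 and 0.13, against -4.96 for Trim13. The 7 partners of Rpgrip1 at the cilium ranged from -0.29 to 0.47, and the 8 other delta protocadherins from -0.57 to 0.50. For the 19 other genes of the mitotic spindle and mitosis, the median was 0.49 and the range -0.16 to 1.24, against a median of 0.02 over all tested probes. None of these partner genes was called. In the list of the RNase A family, which includes the gene of the ribonuclease inhibitor, 8 other genes had a tested probe. They ranged from -1.63 for Ang4, the only one called, to 1.37. Of the LRRC3 family, the second member with a probe, Lrrc3, had a called probe at 1.58, while its brightest probe gave 0.47.

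The genes were not chosen on tissue, so the first question tested was whether they differed between the endothelia. Of their 13 probes that passed the filter, 6 (from 5 genes) were called between aorta and muscle, against 46.1% of all 27387 tested probes, 16.0% higher in aorta and 30.1% lower. The median of all probes was -0.27, so a value near it is no difference relative to the rest of the array. Ang2 was higher in aorta by 3.14 ± 0.26 (SE), or 8.82-fold, with adjusted p = 2.1e-08 by limma, and in 12 of 12 pools. Tmem254a was higher in aorta by 0.99 ± 0.22 (adjusted p = 0.00123), also in 12 of 12 pools. Both lay above the median of all probes by a wider margin, of 3.41 and 1.27.

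Lower in aorta were Lrrc3b, by -1.47 ± 0.23 (SE, adjusted p = 5.1e-05 by limma), and Pcdh17, by -1.23 ± 0.25 (adjusted p = 0.000589) and -1.25 ± 0.30 (adjusted p = 0.00238) with its probes. Both genes were lower in 12 of 12 pools, as was Lgals3, at -1.63 ± 0.27 (adjusted p = 7.4e-05). Supt16 was called at -0.43 ± 0.14 (adjusted p = 0.0192), but this is -0.15 relative to the median of all probes, and with the values as the authors scaled them it was -0.16 with adjusted p = 0.403. For Dlgap5, well above background on 1 of 12 WT arrays, the fit gave -1.26 ± 0.53 (adjusted p = 0.058), which rests on background spots and is no measured tissue difference. Elp3, Rnase1, Rpgrip1 and Trim13 lay between -0.54 and 0.07 and did not pass.

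**Figure D5:**
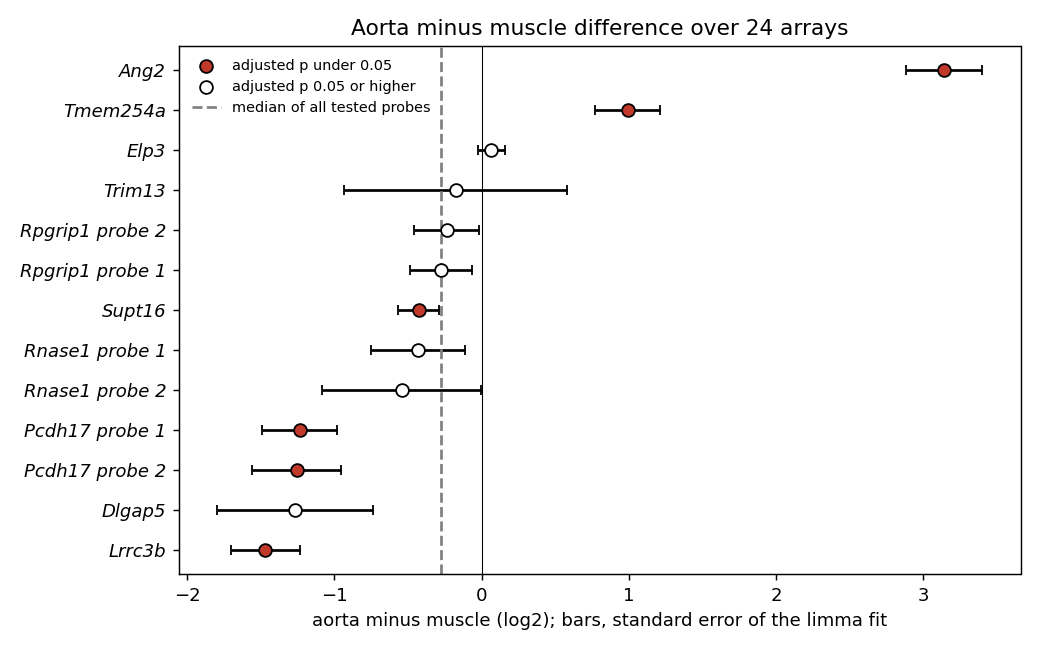
Aorta minus muscle difference (log2) of the 13 probes of the 10 genes that passed the filter, over 24 arrays, with the standard error of the limma fit as bars; red points have an adjusted p under 0.05, and the dashed line is the median of all tested probes at -0.27. Ang2 at 3.14 and Tmem254a at 0.99 lie to the right, and Lrrc3b and both Pcdh17 probes to the left of the dashed line.

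Markers of other cells and of the endothelium itself moved with the tissue. The summed signal of 7 fibroblast markers ranged from 215 to 498 times the percentile in aorta and from 18.1 to 168 times in muscle. That of 10 skeletal muscle fibre markers ranged from 0.918 to 6.45 times in aorta and from 20.03 to 155 times in muscle. Lymphatic endothelial markers, 7 genes, summed to 24.01 to 96.8 times in aorta and 0.684 to 28.9 times in muscle. All 7 fibroblast markers were called higher in aorta, and all 10 muscle fibre markers lower. Of the 7 lymphatic markers 4 were called higher in aorta and 1 lower, and their sums overlapped. Of 7 tested adipocyte markers 6 were called higher in aorta and 1 lower. Their sums overlapped, at 77.9 to 411 times in aorta and 100.3 to 197 times in muscle. Of the 12 endothelial markers 11 were called lower in aorta, with a median of -1.06. Of 10 smooth muscle and pericyte markers 7 were called lower and 1 higher. Beside these counts, 46.1% of all tested probes were called between the tissues. The part of any of these in the tissue differences was not tested.

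Of the related genes, many were called between the tissues, as were 46.1% of all probes, so the counts that follow set no family apart. The list of the RNase A family held 10 tested genes, including that of the ribonuclease inhibitor, which is no RNase. Of these, 4 were called higher in aorta, among them Ang4 at 2.98 ± 0.24 (SE) and Rnase4 at 3.03 ± 0.31, and 2 lower. Of 9 delta protocadherins 6 were called higher in aorta and 2, Pcdh17 and Pcdh19, lower. Only 5 of the 9 had a probe that passed the filter within muscle, so Pcdh8, Pcdh9, Pcdh10 and Pcdh20 entered the fit through aorta alone, which favours a call there. Among the 5, Pcdh18 was 1.49 ± 0.27 and Pcdh19 was -1.52 ± 0.13. Of 20 mitotic genes 9 were called, 8 of them higher in aorta, such as the cyclin gene Ccnb2 at 1.42 ± 0.38. Of the 8 tested FACT and elongation genes 2 were called lower, Supt16 and Supt5. None of the 6 Elongator genes was called, and of 12 genes of protein degradation at the endoplasmic reticulum 3 were called higher, Derl1, Derl2 and Hspa5.

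Next it was asked whether the strain difference depended on the tissue. It did not pass the test for any of the 13 probes, and 0 of 27387 probes passed by limma, with 592 (2.16%) at an unadjusted p under 0.05. Of these genes only Ang2 was among the latter, with a KO minus WT difference of -2.54 ± 1.56 (SD, n = 6) in aorta and -1.17 ± 0.60 (n = 6) in muscle, or -2.84 ± 1.52 and -1.34 ± 0.49 (n = 5 each) without the HFD pair of trial 1. Its difference of differences was -1.36 ± 0.52 (SE), with adjusted p = 1. For Trim13 the means were -5.02 ± 3.14 in aorta and -4.89 ± 2.79 in muscle, or -5.98 ± 2.34 and -5.88 ± 1.56 without that pair. For Elp3 the difference of differences was 0.15 ± 0.18 (SE).

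Last it was asked whether diet moved these genes. None of their probes was called for HFD minus chow, 0 of 11 in aorta, where limma called 8 of 25865 probes (0.0309%), and 0 of 13 in muscle, where it called 74 of 25682 (0.288%). In aorta the differences ranged from -0.47 to 0.67 with a lowest adjusted p of 0.376, and 0 of 11 probes had an unadjusted p under 0.05, against 15.1% of all probes. In muscle they ranged from -0.23 to 0.79. Lrrc3b in muscle was the 1 probe of 13 with an unadjusted p under 0.05, against 16.4% of all probes, at 0.60 ± 0.19 (SE, adjusted p = 0.204 by limma), and was higher on HFD in 6 of 6 pairs. Elp3 was higher on HFD in 6 of 6 pairs of aorta by a mean of 0.16 ± 0.20 (SD) and in 5 of 6 pairs of muscle by 0.27 ± 0.19, and did not pass. The HFD arrays of trial 1 enter these fits, and the SE of Trim13 was 0.77 in aorta and 0.85 in muscle. The counts therefore do not show that these genes respond less to diet than other probes.

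Diet and strain together gave no call either. The diet response in KO minus that in WT was called for 0 of 25865 probes in aorta and 0 of 25682 in muscle by limma, with 677 (2.62%) and 1059 (4.12%) at an unadjusted p under 0.05. The widest value among the 10 genes was Trim13 in aorta, at 2.02 ± 1.55 (SE). The second Rpgrip1 probe in aorta had the only unadjusted p under 0.05 of these genes, at 0.96 ± 0.39 (adjusted p = 1.00). The HFD arrays of trial 1 enter these values, and they are the arrays on which Trim13, Rpgrip1 and Tmem254a of KO stood highest. In trial 1 the diet difference of Trim13 on the KO arrays was 4.07 in aorta and 5.65 in muscle, the highest of the 3 trials in each tissue.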

How the data were processed

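Endothelial RNA was hybridised to Agilent whole mouse genome arrays with 1 colour and extracted by the Agilent software, version 9.1 per the labels and 10.5.1.1 per the file headers. The deposited intensity was background-subtracted and detrended by the authors' software and not scaled between arrays. A deposited table of log2 values, scaled by the authors in a way the sources used here do not state, equals the log2 processed intensity plus 1 constant per array. From the intensities, log2 values minus the 75th percentile of each array were computed, outlier spots were left out, and spots of a probe were averaged. Probes entered a test if all arrays of 1 or more groups had them well above background. The software's marks (deposited as 0 or 1) set both filters. limma 3.58.1 in R 4.3.3 was used with Benjamini-Hochberg adjustment over all tested probes and a threshold of 0.05. The strain and tissue fits used 24 arrays without a block, and the diet fits used the 12 arrays of a tissue with strain and trial as a block, since the methods compared HFD with chow within a trial. Deviations of paired HFD and chow arrays correlated at 0.0081 to 0.453. Arrays were 4 to a slide, each slide holding 1 tissue and trial, and trial 1 was scanned apart from trials 2 and 3. The number of arrays limits the precision. The trials were independent experiments per the labels. Both tissues of a strain, diet and trial came from 1 pool of mice, and the fits over 24 arrays treat them as separate. Their p-values thus measure the spread between arrays, and those of the diet fits the spread between pools. The 12 pairs of KO and WT arrays likewise hold both tissues of the same mice. Only the tissue fit was repeated with the pool as a block. Probes were named through accessions and the RefSeq gene table (27479 of 41174 probes with 1 symbol), and promoter sequences are from RefSeq, GRCm38.p6. The fits were also run on simulated data with independent noise on each array and no shared slides, trials or pools. That run can check the code only, not the p-values of these arrays. The members and gene lists were chosen with earlier results of these data known. The text names the 10 members, Lgals3, for each member the gene most like it over the arrays, and listed or neighbouring genes past a call.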

Additional observations from a re-analysis of the deposited data

How the results depend on the processing

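The strain differences of the 13 tested member probes, of Lgals3 and their directions moved by less than 1 SD over pairs under each alternative that gave a value: normexp background correction, quantile normalization, the deposited table, both filters, each trial left out, the HFD arrays of trial 1 left out, a block by slide and, chosen after seeing the data, the median of each array as its scale. That limit is wide, and most alternatives could not have passed it. Leaving out a trial or the HFD arrays of trial 1 cannot move a mean over pairs by 1 SD. The filters and the block by slide leave the difference itself unchanged. Only the background correction and the scalings could have exceeded the limit. Trim13, Dlgap5, Ang2 and the dim Rnase1 probe gave no value in the fit of probes above background on every array, which they did not enter. No diet or interaction call arose among the members under any alternative. The number of probes called for KO minus WT was 0 to 34 with a trial left out and 60 with the replicate block by slide, against 38. For HFD minus chow in aorta (8 called) it was 0 in each fit without a trial, 55 with normexp, 13 with median scaling, 5 without a filter, 41 for probes above background on every array, 50 without the replicate block and 58 with the block by slide. For muscle (74 called) it was 0 in each fit without a trial, 221 with normexp, 1 without a filter, 247 for probes above background on every array, 274 with the replicate block by slide and 10 by the methods' t-test after adjustment. Quantile normalization gave 1 call where the strain difference was compared between tissues. The shift of all probes between tissues was -0.27 in the main scaling, -0.19 after quantile normalization and -0.01 in the deposited table, and 34.6% of the calls were higher in aorta in the first and 58.9% in the last. With the pool of mice as a replicate block 15402 probes were called for tissue, against 12630. Among members, the tissue call of Supt16 was lost with the deposited table and in each fit without a trial, Elp3 gained one with the deposited table (0.33) and Dlgap5, dim on most WT arrays, with normexp (-0.90). The tissue calls of Tmem254a, Lrrc3b and Pcdh17 held under all alternatives tried, and that of Ang2 in all but the fit of probes above background on every array, which it did not enter. Of the related genes named, Pcdh18, Pcdh19, Ang4 and Rnase4 kept their call in all of them, Ccnb2 lost it without trial 2, and Derl1, Derl2 and Hspa5 lost it without at least 1 trial. For diet, leaving out the pairs that hold the HFD arrays of trial 1 is the fit without trial 1. The cause of none of these moves was tested.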
